A study of Myotis pilosus with 4 samples.

Results

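Hibernating brain and hibernating white adipose tissue (WAT) of the bat Myotis ricketti (entered in the labels as Myotis pilosus), were compared over 196 mature miRNAs. A miRNA is a short RNA that pairs with messenger RNAs, mainly through its seed (bases 2 to 8), and lowers their translation and stability. The members were the mature sequences that the study listed, 119 of them listed as conserved and 77 listed as bat-specific, and the count of each was the number of reads identical to that sequence. The 2 libraries of this comparison are among 4 in the series. HB was made from whole brain and HA from WAT of adult bats in hibernation, and AB and AA were the same tissues of adult bats in the state that the labels call aroused and the study calls active. The labels name no genetic change and no agent in any group, and each library pooled the RNA of 3 bats. Brain and WAT of a state came from the same bats, the hibernating and active bats were caught in different seasons, and the state and the season cannot be told apart. With 1 library per group there was no replicate, so no difference has a p-value, and the spread between bats was not measured.

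Whole brain mixes neurons, several kinds of glia and vessels, and each has its own miRNAs. miR-124 and miR-9 are known from neurons and miR-219 from the oligodendrocytes that make myelin. WAT holds fat cells beside fibroblasts, vessels and blood cells. It has no miRNA of its own, but miR-378, miR-193 and miR-365 are known from fat cells with active oxidation, miR-199 and miR-145 from fibroblasts and vessel walls, and miR-10 from the Hox gene clusters, which set position along the body axis. miR-1, miR-133 and miR-206 are miRNAs of striated muscle.

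The mature sequences below stand for both ends of the comparison and for the miRNAs that were abundant in both tissues. They are those of the study's list, written 5′ to 3′ with T for U and with the seed in capitals. Those from miR-219-3p to miR-7c-5p were more abundant in HB, those from miR-10-5p to miR-365-3p in HA, and the last 3 were abundant in both.
miR-219-3p: aGAATTGTggctggacatct
miR-219-5p: tGATTGTCcaaacgcaattc
miR-9-3p: tAAAGCTAgataaccgaaagta
miR-129-3p: aAGCCCTTaccccaaaaagcat
miR-3958-3p: aGATATTGcacggttgatct
miR-7c-5p: tGGAAGACtagtgatttt
miR-10-5p: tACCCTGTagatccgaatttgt
miR-199-3p: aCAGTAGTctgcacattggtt
miR-365-3p: tAATGCCCctaaaaatccttat
miR-29-3p: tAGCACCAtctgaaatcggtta
miR-7b-5p: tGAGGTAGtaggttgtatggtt
miR-7d-5p: tGAGGTAGtaggttgtatagtt
The list names 6 5p arms miR-7a, 7b, 7d, 7e, 7f and 7g, yet their seed GAGGTAG is that of the let-7 family, whereas miR-7c-5p has another seed, GGAAGAC, which is that of miR-7 in other mammals. They are called by their listed names here.

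HB held 12159756 clean reads and HA 11542470. Reads identical to the listed miRNAs made up 20.9% of HB (2546410 reads) and 13.2% of HA (1520859 reads). Reads over 25 nt made up 0.937% of HB and 6.85% of HA, and HA also stood apart from AA (0.628%) in this. Each log2 ratio of HB to HA was scaled by TMM, which sets the trimmed mean of the log ratios of the listed miRNAs to 0. The interval given with it is the exact Clopper-Pearson 95% interval of the split of the reads. It covers counting error only, and not the spread between bats or libraries. Reads copied by PCR are not independent molecules, so even the counting error can be larger than the interval shows.

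The libraries of the tissues differed for most of the measured miRNAs. Of the 159 miRNAs with 10 or more reads in HB and HA together, 65 had a log2 ratio of 1 or more (higher in brain) and 56 of -1 or less (lower in brain), which is 76.1% of those measured (40.9% higher and 35.2% lower). The remaining 38 lay between. Counts of higher and lower miRNAs in each group below are to be read beside these shares. The whole interval lay beyond 1 in size for 55 miRNAs in the direction of brain and 44 in that of WAT, or 62.3% in all. A size of 2 or more was found for 50 higher and 38 lower miRNAs, and a size of 4 or more for 30 higher and 14 lower, so the extreme ratios were mostly on the side of brain. The log2 ratios ran from -6.96 (miR-10-5p) to 11.53 (miR-219-3p). Of the other 37 listed miRNAs, 31 had fewer than 10 reads and 6 had none in either library.

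The conserved and bat-specific miRNAs split differently. The 98 conserved miRNAs that reached 10 reads leaned to brain, 49 higher against 31 lower, at a median log2 ratio of 1.06. The 61 bat-specific ones leaned to WAT, 16 higher against 25 lower, at a median of -0.28. The median over all 159 was 0.20. The active pair leaned the same ways, with 45 higher against 29 lower conserved miRNAs and 16 against 29 bat-specific ones. Among the listed miRNAs, 33 share their first 18 nt with another. Others overlap in part, such as the bat-specific gAACTTGActatctagagga and tGACTATCtagaggaagta, so these counts are not all of separate RNAs. The study put a larger share of matched reads in ribosomal RNA for HA than for HB. Whether any listed sequences are pieces of longer RNAs was not tested.

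**Figure D1:**
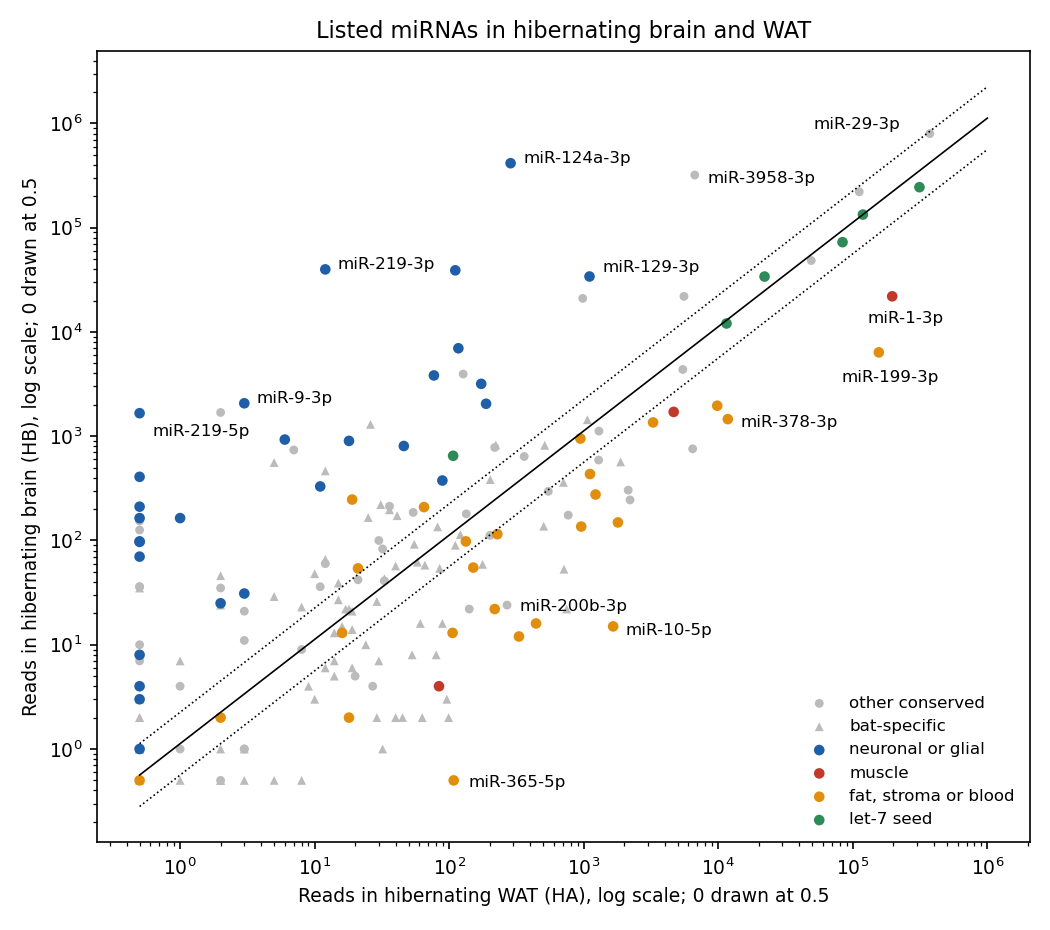
Reads of each listed miRNA in hibernating brain (HB, vertical) against hibernating WAT (HA, horizontal), both on log scales with 0 drawn at 0.5; circles are conserved and triangles bat-specific miRNAs, and colours mark the groups of the legend. The solid line is a log2 ratio of 0 and the dotted lines are 1 and -1. Blue points are the neuronal, miR-219, serotonin 2C receptor and imprinted groups, whose members with 10 or more reads all lie above the lines, up to 2952-fold for miR-219-3p by the exact tag, the muscle miRNAs below them, and 5 of the 6 miRNAs with the let-7 seed between them.

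A few miRNAs held most of the reads in both tissues, and miR-29-3p led in both. The most abundant miRNA held 31.4% of the listed reads in HB and 24.6% in HA, the first 5 held 78.6% and 76.1%, and the first 10 held 91.7% and 94.4%. Of the 10 in each library, 6 were shared. miR-29-3p, a repressor of collagen and other matrix genes, had 799130 reads in HB and 373410 in HA, a log2 ratio of 0.93 (0.92 to 0.93). This is under the size of 1, but 4 of the 6 other scalings and count rules put it over 1, up to 1.10 with the first 18 nt, and scaling by listed reads put it at 0.35. The second place differed. In HB it was miR-124a-3p, with 16.3% of the listed reads against 0.0188% in HA, and in HA it was miR-7d-5p, with 20.6% against 9.61% in HB. The next in HA, miR-1-3p (12.9%) and miR-199-3p (10.3%), held 0.863% and 0.25% of the listed reads in HB.

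All 11 neuronal miRNAs with 10 or more reads, of 13 listed, were higher in hibernating brain, with a median log2 ratio of 5.60. Their reads summed to 492254 in HB and 1605 in HA. miR-124a-3p, which represses genes of cells other than neurons, had 415697 reads in HB and 286 in HA, a ratio of 10.34 (10.17 to 10.51), or 1292-fold. The longer form listed as miR-124b-3p, with the same first 18 bases, had 39016 and 111 reads and a ratio of 8.29 (8.02 to 8.57). The seed AAGGCAC that both carry thus had 454713 reads in HB and 397 in HA. miR-9-3p, the other arm of a precursor known from neural progenitors and neurons, had 2070 reads in HB and 3 in HA, a ratio of 9.26 with a wide interval of 7.71 to 11.54. The least skewed of the group was miR-129-5p, with 376 and 89 reads (1.91, 1.57 to 2.26).

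The rest of the neuronal group rested on WAT counts at or near 0. miR-124-5p had 211 reads in HB, miR-153-5p had 164, miR-153-3p had 98 and miR-138-3p had 70, and each had 0 in HA. A count of 0 allows up to 3 reads, and against that floor, used for every such bound here, these were at least 62.5-fold, 48.6-fold, 29-fold and 20.7-fold higher in HB. The counting error of HB is not in these bounds, and with it the lower limits of the log2 ratios were 5.66, 5.29, 4.53 and 4.04. miR-218a-5p had 330 and 11 reads (4.74, 3.88 to 5.75), and miR-218b-5p 164 and 1 (7.19, 4.69 to 12.50). miR-129-3p was the exception in HA with 1104 reads, beside 34053 in HB (4.78, 4.69 to 4.86). The unmeasured members, miR-218a-3p and miR-218b-3p, had 1 and 4 reads in HB and 0 in HA.

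Both arms of miR-219, which promotes the maturation of oligodendrocytes, were among the most skewed. miR-219-3p had 39847 reads in HB and 12 in HA, the highest ratio of all at 11.53 (10.72 to 12.48). It stood lower, at 10.40, over the 64040 and 42 tags that begin with its first 18 nt, and at 10.19 with bases 2 to 17. miR-219-5p had 1663 and 0, at least 493-fold higher in brain. The active pair held 49302 and 18 reads of miR-219-3p and 894 and 6 of miR-219-5p, so neither state gave the WAT library more than a trace of them.

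miRNAs that lie in introns of the serotonin 2C receptor gene in mammals, a receptor of neurons, were also on the side of brain. This held for 3 of 3, with a median of 5.47, beside 40.9% higher over all 159 measured miRNAs. miR-448-3p had 3829 reads in HB and 77 in HA (5.47, 5.14 to 5.81). miR-1298-5p had 408 and 0, and miR-1298-3p 97 and 0, at least 121-fold and 28.7-fold higher. In the active pair WAT held more miR-448-3p, with 4138 reads in AB and 739 in AA and a ratio of 2.59. miR-448-5p had 3 reads in HB and 0 in HA.

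The imprinted Dlk1-Dio3 cluster is a long cluster that is expressed from the maternal chromosome and is active in the brain of mammals. All 8 measured miRNAs placed in this group were higher in HB, with a median of 4.0 and a range of 3.20 to 7.10. Among these 8, miR-154-3p led by abundance, at 6977 reads in HB and 117 in HA (5.73, 5.46 to 6.0). The widest ratio was that of miR-544-5p, with 929 and 6 reads (7.10, 5.98 to 8.55). miR-485-3p had 3180 and 173 reads (4.03, 3.81 to 4.26) and miR-432-5p 2048 and 188 (3.28, 3.06 to 3.50). Both arms of miR-381 were skewed, the 5p arm with 902 and 18 reads (5.48) and the 3p arm with 806 and 46 (3.96). miR-539 was thinly counted, with 31 and 3 reads of its 5p arm and 25 and 2 of its 3p arm. miR-432-3p had 8 reads in HB and 0 in HA and was not measured.

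Among miRNAs not placed in these groups, miR-3958-3p was the third most abundant in HB. It had 320030 reads in HB and 6683 in HA (5.41, 5.38 to 5.45), and 226127 in AB and 11177 in AA. miR-383-5p had 1690 reads in HB and 2 in HA (9.55, 7.70 to 12.60), with ratios of 8.55 by the first 18 nt and 7.21 by bases 2 to 17, and miR-135-3p 738 and 7 (6.55, 5.50 to 7.87). miR-7c-5p, with the seed of miR-7, had 20988 and 983 (4.25, 4.15 to 4.34). None of these 4 was placed in a group named above, but their genomic positions were not examined, so membership of the imprinted cluster is not excluded. miR-551-3p (126 reads), miR-873-3p (36), miR-876-5p (36) and miR-876-3p (10) had 0 reads in HA, at least 37.3-fold, 10.7-fold, 10.7-fold and 2.96-fold higher in HB.

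On the side of WAT, the muscle miRNAs held a large share of the reads. All 3 were lower in brain, with a median of -3.33, and summed to 23683 reads in HB and 200948 in HA, or 0.93% and 13.2% of the listed reads. miR-1-3p, which promotes muscle differentiation, had 21968 reads in HB and 196202 in HA (-3.33, -3.35 to -3.31). miR-206-3p, known from skeletal muscle, had 1711 and 4662 (-1.62, -1.70 to -1.54), and miR-133-3p 4 and 84 (-4.56, -6.47 to -3.15). All 3 thus had reads in both libraries, although miR-133-3p had only 4 in HB. In the active pair all 3 were also lower in brain, and they summed to 16059 reads in AB and 208761 in AA. What part tissue other than brain or WAT had in the reads of either library was not tested.

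The stromal and vascular group was mostly on the side of WAT, with 4 lower, 1 higher and 1 between of 6 measured, and a median of -2.46. For comparison, 35.2% of all 159 measured miRNAs were lower in brain and 40.9% higher. miR-199-3p, made by fibroblasts, had 6372 reads in HB and 156158 in HA (-4.78, -4.82 to -4.75), and its 5p arm 16 and 442 (-4.96, -5.78 to -4.24). miR-145-3p, from smooth muscle, had 22 and 218 (-3.48, -4.18 to -2.84). miR-222-3p, from vessels, had 1357 and 3277 (-1.44, -1.53 to -1.35), but its 5p arm lay within the size of 1, with 98 and 133 reads (-0.61). The member on the side of brain was miR-221-5p, with 247 and 19 reads (3.53, 2.86 to 4.29). The tags that begin with its first 18 nt gave 10995 and 3704 reads and a ratio of 1.39. miR-221-3p had 2 reads in each library.

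The 4 miRNAs known from blood cells were all lower in brain, with a median of -3.16 and 342 reads in HB against 2922 in HA. miR-142-5p, from white blood cells, had 136 and 958 reads (-2.99, -3.26 to -2.73) and miR-142-3p 2 and 18. miR-486-5p, known from red blood cells but not only from them, had 149 and 1795 (-3.76, -4.01 to -3.52), and miR-486-3p 55 and 151 (-1.63, -2.10 to -1.17). These 4 move in the same direction as the miRNAs of WAT and of striated muscle. The cells they came from and their part in the difference were not tested.

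Of 5 miRNAs known from brown or oxidative fat, 4 were lower in brain, with a median of -3.20 over the 5. The share lower in brain over all 159 measured miRNAs was 35.2%. miR-378-3p, from an intron of a gene that drives mitochondrial biogenesis, had 1459 reads in HB and 11775 in HA (-3.18, -3.26 to -3.10). miR-365-3p had 12 and 330 (-4.95, -5.92 to -4.13), and miR-193-3p, from the same cluster in mammals, 13 and 106 (-3.20, -4.15 to -2.36). miR-365-5p had 0 and 108, at least 40.5-fold lower in brain. It was the only listed miRNA that had 10 or more reads in HA and none in HB, but 17 reads in HB and 5480 in HA began with its first 18 nt, so the absence held for the listed end alone. The exception, miR-455-3p, had 209 and 65 reads (1.52, 1.11 to 1.94), and its sign turned with the length variants counted (809 and 1192 reads, -0.74).

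The lowest fitted ratio was that of miR-10-5p, with 15 reads in HB and 1655 in HA (-6.96, -7.80 to -6.23), or 124-fold lower in brain. With the first 18 nt it stood at -7.24 and miR-365-5p, whose exact count in HB is 0 and sets only a bound, at -8.51. The 3p arm of miR-10 had no read in either library. Among 7 miRNAs known from fat cell differentiation, 4 were lower, 1 higher and 2 between, and the median was -1.16. With 76.1% of all 159 measured miRNAs at the size of 1 or more (35.2% lower), this count does not set the group apart. miR-22-3p had 1962 and 9822 reads (-2.49, -2.56 to -2.42) and miR-130-3p, a repressor of fat cell formation, 276 and 1224 (-2.32, -2.51 to -2.13). miR-148-3p did not reach the size, with 950 and 944 reads (-0.16, -0.29 to -0.03), or -0.68 with the first 18 nt. An unlisted tag with its seed, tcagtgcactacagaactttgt, had 1712 reads in HB and 50663 in HA. miR-30a-3p, higher in brain, had 54 and 21 reads (1.19, 0.44 to 1.99), while miR-30b-3p and miR-30c-3p lay on the other side at -1.16 and -1.53. The list holds no 5p arm of miR-30, so these values speak for the 3p arms alone.

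**Figure D2:**
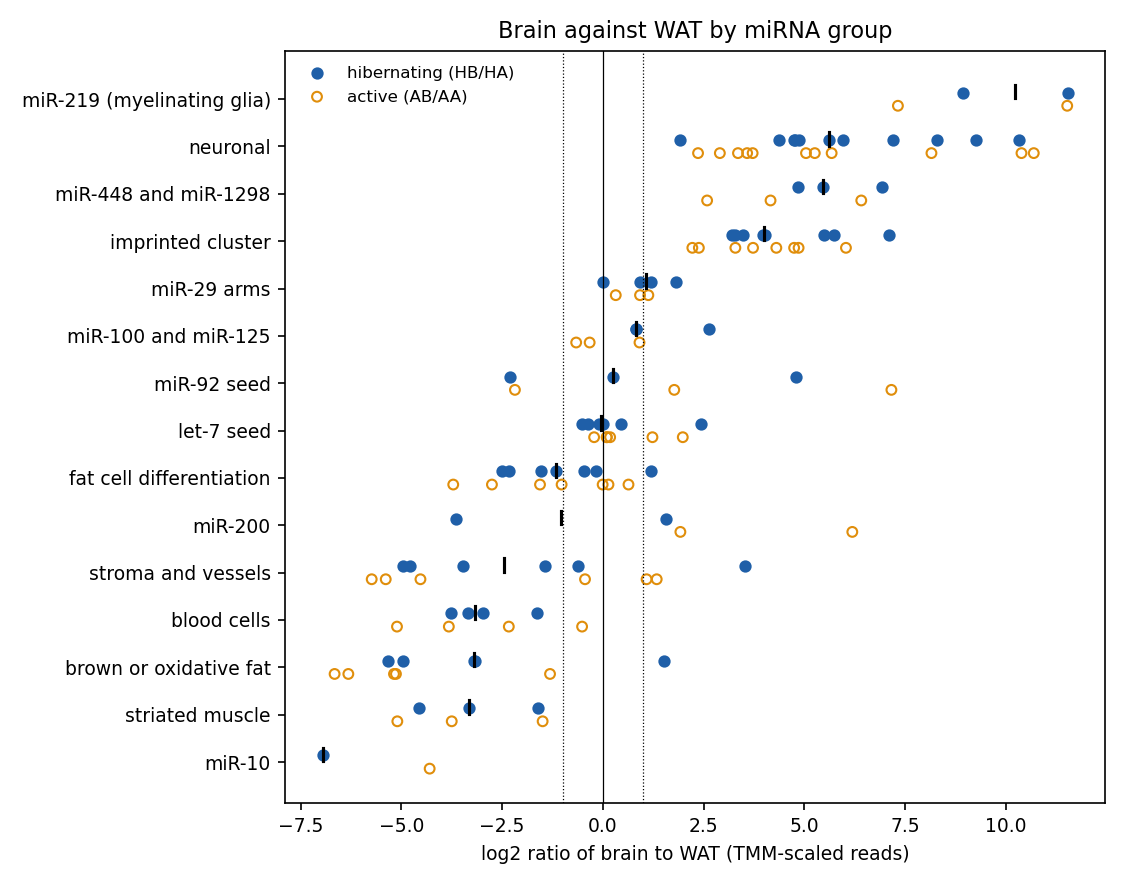
Log2 ratio of brain to WAT (horizontal) for each measured miRNA of 15 groups; filled points are the hibernating pair (HB/HA), open points the active pair (AB/AA), and the short bar is the median of the filled points. The dotted lines are at -1 and 1. The miR-219, neuronal, miR-448 and miR-1298, and imprinted groups lie wholly to the right of 1 in hibernation and the muscle, blood and miR-10 groups wholly to the left of -1.

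Several families gave different answers for different members. Of the 6 listed miRNAs with the let-7 seed, 5 lay within the size of 1. miR-7b-5p was even, with 133676 reads in HB and 118816 in HA (0.00, -0.01 to 0.01), and miR-7d-5p had 244630 and 312837 (-0.52, -0.53 to -0.52). miR-7e-5p stood at -0.38, miR-7g-5p at -0.10 and miR-7f-5p at 0.45. With the first 18 nt, which miR-7b-5p and miR-7d-5p share, these 2 stood at -0.02, and the sign turned for miR-7e-5p (0.08) and miR-7g-5p (0.65). Only miR-7a-5p, the least abundant of the 6, exceeded 1, with 649 and 107 reads (2.43, 2.13 to 2.74). As a share of the listed reads the 6 together held 19.5% in HB and 36.1% in HA, beside the near-even ratios. These values cover the listed sequences only. Outside the list, the tag tgaggtaggaggttgtatagt with the same seed had 71629 reads in HB and 7834 in HA. Its 22 nt form, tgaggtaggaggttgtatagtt, had 51245 and 10942.

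The 3 miRNAs with the seed ATTGCAC, the seed of miR-92, went 3 ways. miR-92b-3p, known from neural progenitors, had 3948 reads in HB and 127 in HA (4.79, 4.53 to 5.05). miR-92a-3p, of the miR-17-92 cluster of dividing cells, had 175 and 767 (-2.30, -2.55 to -2.06), and miR-363-3p 180 and 134 (0.26, -0.07 to 0.59). Both 92 sequences are shown because they differ in few bases:
miR-92a-3p: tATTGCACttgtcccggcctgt
miR-92b-3p: tATTGCACtcgtcccggcct
Over the shared seed the sum was 4303 reads in HB and 1028 in HA (1.90). With the first 18 nt the split stood, at 5.53 for miR-92b-3p and -1.86 for miR-92a-3p.

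The miR-200 family, known from epithelial cells, was split too, on few reads. miR-200a-3p had 100 and 30 reads (1.57, 0.97 to 2.21) and miR-200b-3p 24 and 269 (-3.66, -4.32 to -3.05). The 4 measured miR-29 arms did not reach below 0. miR-285-3p, which has the seed of miR-29-3p, had 21932 and 5558 reads (1.81, 1.77 to 1.85), miR-29-5p had 83 and 32 (1.21) and miR-285-2-5p 9 and 8. Of miR-100 and miR-125, miR-100-5p had 221291 and 111620 reads (0.82, 0.81 to 0.83), miR-100-3p 42 and 21 (0.83) and miR-125-3p 21 and 3 (2.64, 0.89 to 5.03).

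Of the miRNAs listed as bat-specific, 26 of 77 had 100 or more reads in the 2 libraries together. Together the 77 had 9047 reads in HB and 8602 in HA. The log2 ratios of the 61 measured ran from -5.80 to 6.63. One of the 77 (cAAGCTCGcttctatgggtctgt, 14 reads in HB and 19 in HA) begins with the whole of the conserved miR-100-3p (cAAGCTCGcttctatgggtct), so the class is that of the list alone. The extreme sequences with 100 or more reads are shown in place of a name, the first 3 higher in brain and the last 3 lower:
Bat-specific, 559 reads in HB and 5 in HA: tAGAAACGtccagaggcaccg
Bat-specific, 1299 and 26 reads: tAGGAGCAgtgataggtaatat
Bat-specific, 465 and 12 reads: aACGTAGAggaaattccacctt
Bat-specific, 53 and 713 reads: gCGTTGGTggtatagtggtgag
Bat-specific, 22 and 747 reads: gATCGGGCctaaaccggcagtt
Bat-specific, 2 and 99 reads: aGGAGGGAgctgatcgatgt
Their log2 ratios were 6.63 (5.40 to 8.26), 5.47 (4.92 to 6.09), 5.11 (4.29 to 6.07), -3.92 (-4.35 to -3.52), -5.26 (-5.94 to -4.65) and -5.80 (-8.86 to -3.91). The seed ATCGGGC of the fifth was shared by 4 bat-specific miRNAs, which summed to 34 reads in HB and 874 in HA (-4.85, -5.39 to -4.36) and were all lower in brain. Of these, 3 share their first 18 nt (589 and 9868 reads), so the 4 are not separate observations. In contrast, the seed AAGAAAC was shared by 6 that summed to 311 and 197 reads (0.49, 0.23 to 0.75), 3 of them higher in brain and 3 within the size of 1 by exact tag. The 3 higher ones share their first 18 nt (1075 and 197 reads). The other 3 share theirs too, with 237 and 460 reads and a ratio of -1.13.

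More kinds of listed miRNA were found in HB, which also had more listed reads, than in HA. With 1 read taken as presence, 182 were found in HB and 161 in HA, 153 in both, 29 in HB only and 8 in HA only. Those in HB only were thinly counted (median 7 reads), and for 12 the count was 3 or less, no more than a 0 can hide. Those in HA only were thinner still (median 2.5 reads), and 1 reached 10 reads. Of the miRNAs with 10 or more reads on 1 side and 0 on the other, 13 were in HB, among them a bat-specific miRNA with 35 reads (tTGACCAAagaatagacctcct), and miR-365-5p was in HA. The listed end mattered here also for miR-181c-3p, with 154 and 0 exact reads but 1042 and 295 reads that began with its first 18 nt (1.64). When both libraries were thinned to 11542470 clean reads, which leaves their listed reads unequal, 26 were found in HB only and 8 in HA only.

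The ratio of a 5p to a 3p arm within a library needs no scaling between libraries. Arms were paired by their listed name. An arm can come from more than 1 hairpin, and whether both arms of a pair came from the same one was not tested. Of 46 names with both arms listed, 15 had 10 or more reads in each arm over HB and HA. The same arm led in both tissues in 13. The log2 ratio of 5p to 3p differed between HB and HA by 1 or more in size for 7, of which 2 were higher and 5 lower in HB, and the interval held 0 for 8. The interval lay beyond 1 for 3. miR-129 was more tilted to its 3p arm in brain, with 376 5p and 34053 3p reads in HB against 89 and 1104 in HA, a difference of -2.87 (-3.22 to -2.51). In the active pair the same difference was -0.54. miR-486 was less tilted to its 5p arm in brain (149 and 55 reads against 1795 and 151, -2.13, -2.66 to -1.60), and the active pair gave -1.82. miR-7c was more tilted to its 5p arm in brain (20988 and 213 reads against 983 and 36, 1.85, 1.29 to 2.38), and the active pair gave 3.91.

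The reads of a miRNA include forms that end earlier or later than the listed sequence, and these ends differed between HB and HA. For 95 miRNAs with 100 or more reads in each library among the tags that begin with the first 18 nt (83 such beginnings), the listed sequence held a larger share of those tags in HB for 60 and a smaller share for 35, with a median difference of 2.18 percentage points. It was larger in HB by 10 points or more for 20, and smaller by as much for 6. The mean length of these tags was shorter in HB for 72 of 83 beginnings, with a median difference of -0.371 nt. In the active pair it was shorter in brain for 42 of 83, with a median of -0.0178 nt. By HB minus HA the largest shifts were those of bat-specific miRNAs, such as -3.98 nt for gCGTTGGTggtatagtggtgag and -3.35 nt for tGGATACCgcagctaggaat. HA also held the larger share of reads over 25 nt, and the part of such reads in these shifts was not tested. The median of the mean lengths was 20.9 nt in HB, 21.4 nt in HA, 21.19 nt in AB and 21.21 nt in AA, so HB was the shortest and HA the longest. Over all clean reads, tags of 18 and 19 nt made up 25.2% in HB and 12% in HA, and 20.2% in AB and 11.3% in AA, so brain had the larger share in both states. Tags of 23 to 25 nt made up 11.7% in HB and 25.9% in HA, beside 13.0% in AB and 13.6% in AA.

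miR-100-5p shows what such a shift does to a count. Its main forms were the following, of which the listed one has its seed in capitals.
20 nt: aacccgtagatccgatcttg
21 nt, listed: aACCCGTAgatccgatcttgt
22 nt: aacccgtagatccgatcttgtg
The listed form held 50.7% of the tags with the first 18 nt in HB and 26.2% in HA, and the 22 nt form 21.8% and 36.4%. The sum over all of them was 436585 reads in HB and 426375 in HA, a ratio of -0.14, beside 0.82 for the listed form. The largest rises of the listed share in HB were those of a bat-specific miRNA (tACCGATTggatggttta, 36.9% against 3.74%), miR-485-3p (51.7% against 24.6%), miR-100-5p, the 18 nt bat-specific miRNA with the beginning gCGTTGGTggtatagtgg (31.1% against 9.28%) and miR-455-3p (25.8% against 5.45%). The largest falls were those of miR-744-5p (22.8% against 42.9%), miR-7g-5p (28.7% against 48.4%), miR-92b-3p (28.2% against 47.4%), miR-139-3p (7.20% against 21.7%) and a bat-specific miRNA (68.2% against 81.2%).

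**Figure D3:**
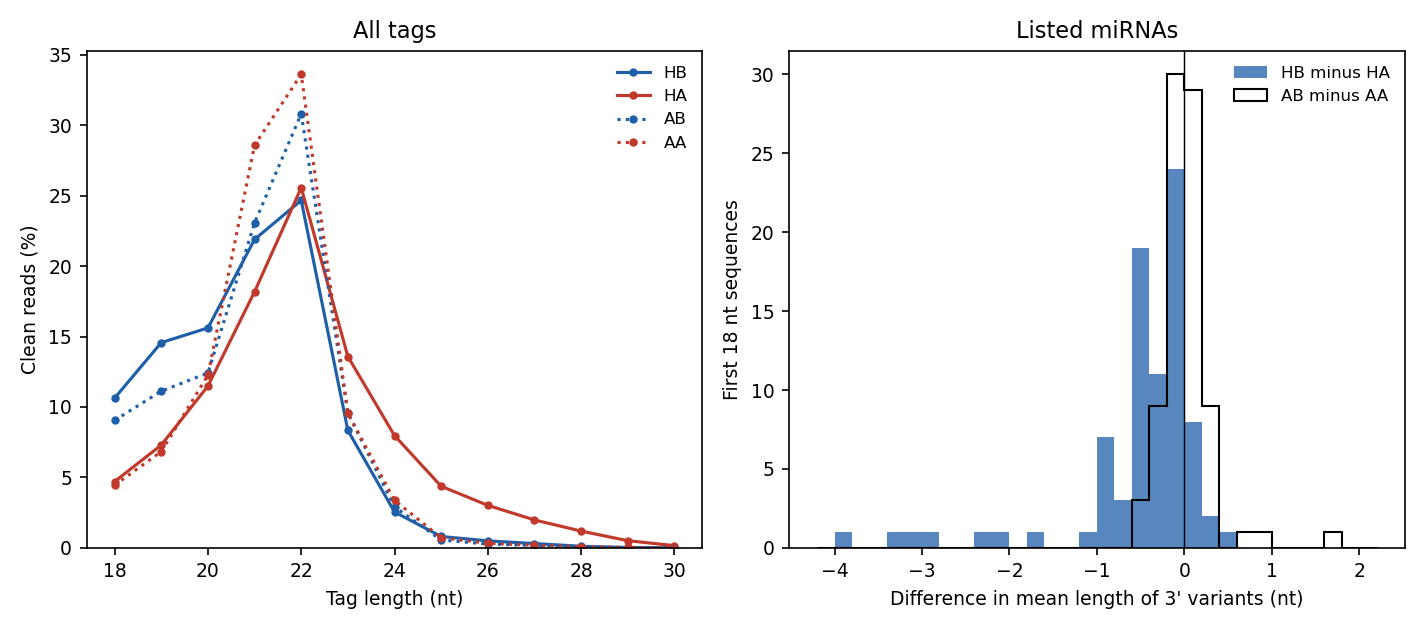
Left, share of all clean reads (%) by tag length in nt for HB, HA, AB and AA. Right, number of first 18 nt sequences of the listed miRNAs by the difference in mean length (nt), filled for HB minus HA and outlined for AB minus AA. HA alone has the raised shoulder from 23 nt, both brain libraries have raised shares at 18 and 19 nt (25.2% in HB and 20.2% in AB), and the filled bars lie mostly below 0 (72 of 83), the outline near it (42 of 83).

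The active pair shares no library with the hibernating pair and gave much the same order. Over the 155 miRNAs with 10 or more reads in each pair, the log2 ratios had a Pearson r of 0.911 and a Spearman rho of 0.893, as a description across miRNAs that are not independent replicates and that share the tissue and the sequence composition of each miRNA. A size of 1 or more in the same direction in both pairs was found for 98. In the active pair alone, 61 of 159 were higher and 58 lower in brain (74.8%), and the whole interval lay beyond 1 for 60.4%. The median difference between the pairs was 0.93 in size and 29 differed by 2 or more.

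Some group medians lay near each other in the 2 states, at 5.60 in hibernation and 5.04 in activity for the neuronal group, 4.0 and 4.01 for the imprinted cluster, -3.33 and -3.75 for muscle, -3.16 and -3.08 for blood and -2.46 and -2.49 for stroma and vessels. Other groups lay further apart, at 5.47 and 4.16 for the serotonin 2C receptor group, 0.26 and 1.77 for the miR-92 seed and 0.83 and -0.33 for miR-100 and miR-125. The miR-200 pair stood at -1.04 and 4.05, and the brown or oxidative fat group at -3.20 and -5.18. The WAT libraries held 11775 (HA) and 180178 (AA) reads of miR-378-3p and the brain libraries 1459 (HB) and 4624 (AB), and the ratio was -3.18 in hibernation and -5.18 in activity. The largest difference was that of miR-200b-3p, at -3.66 in hibernation and 1.92 in activity (24 reads in HB, 269 in HA, 99 in AB and 28 in AA). miR-200a-3p, of the same family, had 204 reads in AB and 0 in AA. miR-10-5p stood at -6.96 and -4.30, with 52 reads in AB and 1097 in AA, and miR-3135-5p at 0.65 and -2.49, with 639 reads in HB, 361 in HA, 808 in AB and 4874 in AA. With 1 library in each of the 4 groups, the difference between the states was not tested.

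**Figure D4:**
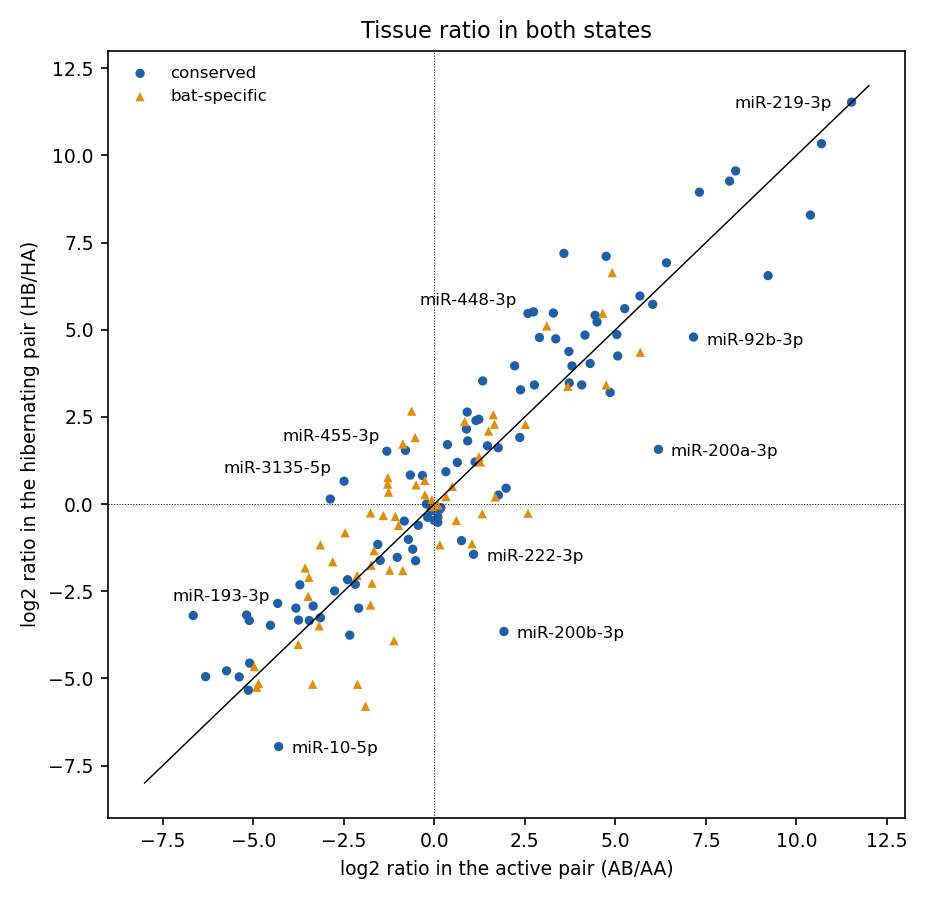
Log2 ratio of brain to WAT in the hibernating pair (HB/HA, vertical) against the active pair (AB/AA, horizontal) for the 155 miRNAs with 10 or more reads in each pair; circles are conserved and triangles bat-specific miRNAs, and the solid line marks equal ratios. Most points follow the line (Pearson r 0.911), and miR-200b-3p is farthest from it at -3.66 against 1.92.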

How the data were processed

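Small RNA of the 4 pools was size-selected on a gel and sequenced on an Illumina (Solexa) instrument. The authors removed adapters and poor reads and deposited 1 table per library that holds the distinct clean tags and the raw count of each, with no normalization and no gene. Tags run from 18 to 30 nt. Genome builds and aligners play no part in these counts. Each miRNA took the count of the 1 tag that equals its sequence in the study's supplementary list, of which only names and sequences were used. The listed sequence is not always the commonest form.

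HB, HA, AB and AA were the groups, with 1 library each. TMM factors came from edgeR 4.0.16 (R 4.3.3), within each pair of libraries and over the listed miRNAs. Intervals are 95% Clopper-Pearson (SciPy 1.17.1), and those of arm ratios are conditional exact. A count of 0 was set to a floor of 3 reads, and no ratio was given where both counts were 3 or fewer. Counts of miRNAs used a minimum of 10 reads in a pair and a log2 size of 1. The calculation was tested on simulated data for HB against HA with 157 miRNAs, of which 60 were changed 4-fold. It recovered all 60, called 2 of the 97 unchanged, and its intervals held the true value in 96.8%. The simulated counts held counting error only, with as many miRNAs changed up as down. They therefore do not test the spread between bats, or the scaling where most miRNAs differ and the extremes lean to 1 side.

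Named miRNAs were the members of 15 groups, the 12 highest and lowest ratios with 100 or more reads, the 10 most abundant of each library, those with 0 reads on 1 side and 10 or more on the other, the 3 extreme bat-specific miRNAs on each side, the arm pairs beyond 1, the 5 largest rises and falls of the listed share, and those with opposite signs in the 2 states. Other miRNAs were named after their values were seen. The miRNAs, groups and rules were chosen with earlier results of these data known. The alternatives were 4 other scalings, including the median of ratios (DESeq2 1.42.0), 2 other rules for which tags count, other minimums and sizes, and thinning to an equal number of clean reads.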

Additional observations from a re-analysis of the deposited data

Results flagged for a closer look

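For 7 miRNAs with 100 or more reads in each pair, the tissue ratio had opposite signs in the 2 states, with both counting intervals beyond 0 and under all 5 scalings. Each state has 1 library per tissue, so the difference was not tested. The log2 ratio of HB to HA was -3.66 for miR-200b-3p (1.92 in the active pair), -1.44 for miR-222-3p (1.08) and -1.14 for the bat-specific cCCGGCGGggaaggtggct (1.04). It was -1.05 for miR-139-3p (0.75), 0.82 for miR-100-5p (-0.33), 1.72 for the bat-specific tGACTATCtagaggaagta (-0.87) and 1.52 for miR-455-3p (-1.31). With tags that begin with the first 18 nt, miR-139-3p, miR-100-5p and miR-455-3p no longer had opposite signs. A further 10 miRNAs had opposite signs that depended on the scaling.

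Several of the most abundant tags outside the list are given by sequence and count alone, since no listed miRNA has them. The tag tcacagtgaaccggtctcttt had 137180 reads in HB and 1913 in HA. The tag ttcacagtggctaagttc had 123798 reads in HB and 47915 in HA. A tag and its longer forms were abundant in both, with 131661 reads in HA and 124811 in HB for cgcgacctcagatcagacg, 173583 and 112341 for cgcgacctcagatcagacgt, and 212220 and 113187 for cgcgacctcagatcagacgtg.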

How the results depend on the processing

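No paired analysis was possible because each group has 1 library and the labels carry no replicate numbers, and no replicate could be left out. Of the 121 miRNAs whose log2 ratio reached 1 in size, 115 kept their sign under all 6 other scalings and count rules, and 104 (55 higher and 49 lower) stayed beyond 1 in all 6. With bases 2 to 17, tGACTATCtagaggaagta and tGACTATCtagaggaagt went to -0.31, miR-139-3p to 0.070 and miR-455-3p to -1.08. With the first 18 nt, miR-139-3p went to 0.54 and miR-455-3p to -0.74. The first 18 nt moved the fold by 1.5 times or more for 72 of the 159 miRNAs measured. The first 18 nt add tags that begin alike and end elsewhere. Bases 2 to 17 add every tag that holds those bases at any position, so tags with other 5′ ends count too. The cause of these moves was not tested further. Scaling by listed reads shifted the median ratio by -0.57 and gave 57 higher and 63 lower, and the first 18 nt gave 69 and 69. A minimum of 100 reads gave 43 higher and 35 lower, since 102 miRNAs were then tested. The miRNAs found in HA only were 20 with presence at 10 reads, 3 with the first 18 nt and 1 with bases 2 to 17, and those in HB only were 18 with bases 2 to 17. Counts under about 10 reads limit the ratios of the miRNAs near 0 in WAT.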
